A study of Mus musculus with 16 samples.

Results

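The mRNA levels of 10 transcription factor genes of neural progenitors, Sox1, Sox3, Sox4, Sox11, Sox21, Pax3, Pax6, Pax7, Zic1 and Otx2, were followed in P19 cells, a mouse embryonal carcinoma line. The cells were labelled control, let-7a (a mimic of the miRNA), siSfpq (siRNA against Sfpq) or let-7a + siSfpq, and the comparison asks how these genes responded to the miRNA, to the loss of Sfpq and to both. Transfections were at 24 nM for 48 h, and total RNA was hybridized to Agilent arrays of 1 colour, 4 arrays per condition and 16 in all. The labels do not say what the control cells received, and P19 is a single line. Members were chosen by the gene name or accession of their probes, which gave 19 probes on 29 spots for the 10 genes, of 27442 gene names on the array. After dim probes were left out, 8 of the 10 were tested among 18338 genes. Every kept probe of these 8 was well above background on all 16 arrays, whereas Pax6 and Pax7 did not pass.

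Levels are given as log2 of the background-corrected intensity after quantile normalization, in array units. Changes are differences of these levels, so that 1 unit is a change of 2-fold, and a gene was called at a limma adjusted p under 0.05 over all genes tested. Between arrays 1 and 2 of a condition the median absolute log2 difference was 0.058 to 0.078, close to the 0.058 to 0.068 between repeated spots of a probe on an array, and their mean was counted as 1 sample. This left 3 samples per condition, listed below in the order of replicates 1 and 2, replicate 3 and replicate 4. Replicate 3 of each condition stood apart, at a median difference of 0.22 to 0.37 from the other arrays, against 0.12 to 0.16 between replicates 1 or 2 and replicate 4. Results are therefore also given without replicate 3, over 2 samples per condition. The study describes replicate transfections without saying which arrays share one, so that p-values measure the spread between these samples, part of which may be technical. Precision is limited by the number of arrays. An exact two-sided permutation test of 3 samples against 3 cannot go below p = 0.1. Between 33733 and 38464 of 59305 spots per array were well above background.

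Sox, Pax, Zic and Otx proteins bind DNA and set the identity of cells in the early nervous system. Sox1 and Sox3, with Sox2, keep dividing progenitors in place, whereas their relative Sox21 acts as a repressor. Sox4 and Sox11 come up as progenitors commit and are strong in young neurons, Pax3, Pax6, Pax7 and Zic1 pattern the neural tube and its dorsal border, and Otx2 marks the forebrain and midbrain and is also made by pluripotent cells of the early embryo. Let-7a represses mRNAs that pair with its seed, and Sfpq is a nuclear RNA-binding protein of the paraspeckle. The mature miRNA carried by the mimic is shown first because it defines the treatment. Its seed, bases 2 to 8, is in capitals, in RefSeq sequence of build GRCm38.p6 on chromosome 13 from 48538239 to 48538260, minus strand.

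let-7a: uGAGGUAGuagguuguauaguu

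The knockdown was checked first. Sfpq mRNA stood at log2 levels of 12.07, 11.98 and 11.99 in control, 12.04, 11.998 and 11.90 with let-7a, 10.56, 11.47 and 10.61 with siSfpq alone, and 11.31, 11.50 and 11.40 with both treatments. Every siSfpq sample was below every control sample, but replicate 3 with siSfpq kept most of its Sfpq mRNA. The log2 change with siSfpq alone was -1.13 (standard error 0.19, limma adjusted p = 0.0074), and without replicate 3 it was -1.44 (standard error 0.070, limma adjusted p = 9.3e-06). When let-7a + siSfpq was compared with let-7a, the change was -0.57 (standard error 0.19, limma adjusted p = 0.15), and without replicate 3 it was -0.61 (limma adjusted p = 9.0e-04). Sfpq was thus less reduced with both treatments than with siSfpq alone, by 0.53 (limma adjusted p = 0.10, 0.038 with the replicate block, and 0.77 with a limma adjusted p of 1.3e-04 without replicate 3). The values for both treatments below carry this difference in knockdown, and its part in them was not tested. The change with siSfpq alone was not called without replicate 4 (-1.01, limma adjusted p = 0.46), without replicates 1 and 2 (-0.94, limma adjusted p = 0.42) or in a fit of the control and siSfpq samples alone (limma adjusted p = 0.064). Of 10 embryonal carcinoma markers, 9 were well above background on all 16 arrays, as were all 10 neuronal markers. Detection therefore does not tell the cell type, which is taken from the study.

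With siSfpq alone, the progenitor genes were mostly lower. All 8 members had a change below 0, with a median of -0.64 against 0.0067 over all genes, and 4 of them, Sox1, Sox4, Sox11 and Pax3, were called lower and none higher. Of all genes, 13.6% were called and 7.32% were called lower. With the replicate number, by which the samples pair, as a block, 7 of 8 members were called lower, against 37.8% of all genes called and 19.3% called lower. Without replicate 3, the same number of members, 7 of 8, was called lower, against 49.2% of all genes called and 25.4% called lower. Otx2 was the exception in both. Limma called 0 of 8 members without replicate 4, without replicates 1 and 2, or with only control and siSfpq in the fit, and in each of these 3 fits it called 0% of all genes, with 1718, 1862 and 4732 genes at an unadjusted p under 0.05. Without the filter on dim probes 1 of 10 members (Pax6 and Pax7 included) was called, against 5.53% of all genes. Over the 12 samples 5673 genes had an unadjusted p under 0.05. Within each replicate number the difference was smaller in replicate 3 than in the other samples for 7 members, as it was for Sfpq.

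**Figure D1:**
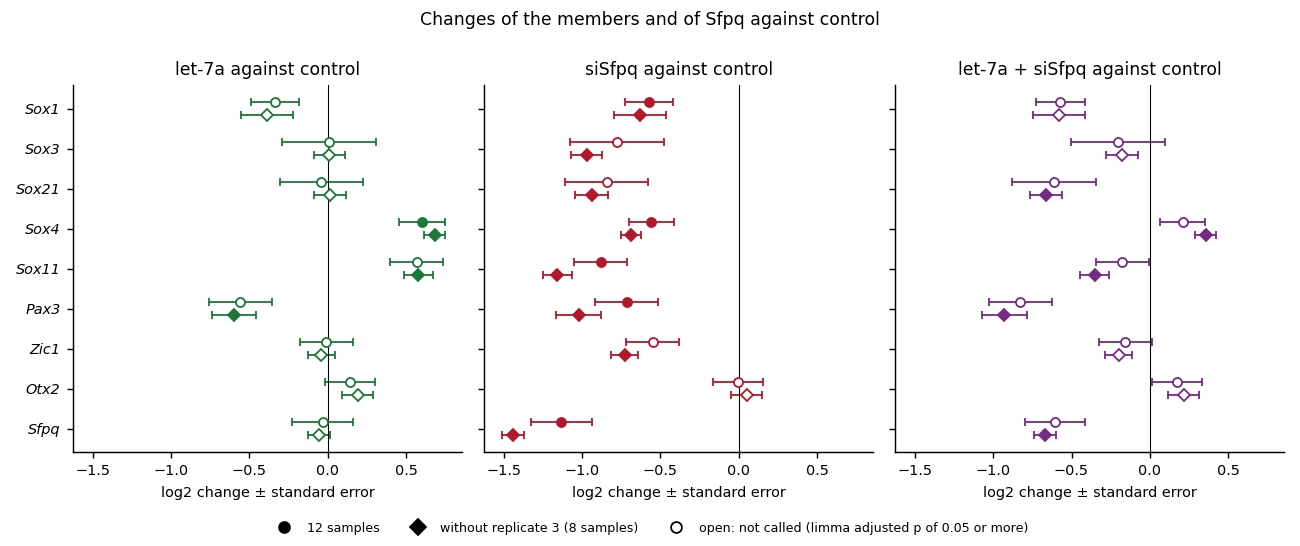
Log2 change (x axis, with standard error) of the 8 tested members and Sfpq (rows) against control, for let-7a, siSfpq and let-7a + siSfpq, over 12 samples (circles) and without replicate 3 (8 samples, diamonds). Filled symbols were called at a limma adjusted p under 0.05. With siSfpq the members apart from Otx2 lie between -0.55 and -0.88 over 12 samples, whereas with let-7a Sox4 and Sox11 lie above 0 and Pax3 and Sox1 below.

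With let-7a alone, the members did not move one way. The median change was -0.00055, against -0.036 over all genes, and 4 members lay above 0 and 4 below. Sox4 was the single member called, as higher, where 6.9% of all genes were called. With the replicate block 4 of 8 members were called, Sox4 and Sox11 higher and Sox1 and Pax3 lower, against 21.8% of all genes. Without replicate 3, 3 of 8 were called, Sox4 and Sox11 higher and Pax3 lower, against 30% of all genes, whereas limma called 0 of 8 without replicate 4 (0.0109% of all genes) and without replicates 1 and 2 (0.0164%). It also called 0 of 8 under scaling to the 75th percentile (6.13% of all genes, and Sox4 at a limma adjusted p of 0.055) and with the brightest probe of each gene (6.72%), and 0 of 10 without the filter on dim probes (3.76%). These 5 fits held 1536, 1577, 3697, 3757 and 4341 genes at an unadjusted p under 0.05. The 12 samples gave 3811 genes at an unadjusted p under 0.05.

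With let-7a + siSfpq against control, 0 of 8 members were called, where limma called 1.52% of all genes and 2161 genes had an unadjusted p under 0.05. The median change of the members was -0.19, against -0.013 over all genes. With the replicate block Sox1, Sox21 and Pax3 were called lower (3 of 8, against 8.14% of all genes), and without replicate 3 Sox11, Sox21 and Pax3 were called lower and Sox4 higher (4 of 8, against 18.2% of all genes). Against let-7a alone, adding siSfpq lowered Sox11 (1 of 8 called, against 3.12% of all genes). The block added Sox21 (2 of 8, against 13.2%), and leaving out replicate 3 gave Sox4, Sox11 and Sox21, all lower (3 of 8, against 26.7%). Against siSfpq alone, adding let-7a raised Sox4 and Sox11 (2 of 8 called, against 10.3% of all genes). The block added Sox3 and Zic1, both higher (4 of 8, against 33.3%), and the same 4 were called without replicate 3 (47.1% of all genes). Without replicate 4 or without replicates 1 and 2, limma called 0 of 8 members and 0% of all genes in both of these comparisons, with 954 and 1079 genes at an unadjusted p under 0.05 against let-7a and 1438 and 1674 against siSfpq. Over the 12 samples 3030 and 5146 genes had one. The fall of Sox11 against let-7a was also not called under scaling to the 75th percentile (limma adjusted p = 0.068), without the intensity trend (limma adjusted p = 0.055), with the brightest probe (limma adjusted p = 0.059) or without the filter on dim probes (limma adjusted p = 0.075). The rise of Sox11 against siSfpq was not called without that filter (limma adjusted p = 0.053). In a fit of the siSfpq samples and those with both treatments alone, Sox4 and Sox11 were not called (limma adjusted p = 0.093 and 0.10), where 1.21% of all genes were. The comparisons share samples, so that their values are not independent of each other.

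The interaction compares the effect of let-7a with siSfpq and without it. Over 12 samples limma called 0% of genes, 0 of 8 members included, and 1159 genes had an unadjusted p under 0.05. Its estimate was above 0 for all 8 members, from 0.035 for Otx2 to 0.57 for Sox3. Without replicate 3, Sox3 (0.78), Pax3 (0.69), Zic1 (0.57) and Sox4 (0.36) were called above 0, 4 of 8 members against 22.3% of all genes. For these 4 the limma adjusted p was 0.0082, 0.047, 0.016 and 0.028. In replicate 3 alone the interaction was 0.13 for Sox3, -0.041 for Pax3, 0.065 for Zic1 and -0.23 for Sox4. No interaction of a member was called in a fit that held replicate 3. The interaction of Sfpq itself was also called above 0 without replicate 3 (0.83, limma adjusted p = 0.0017).

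**Figure D2:**
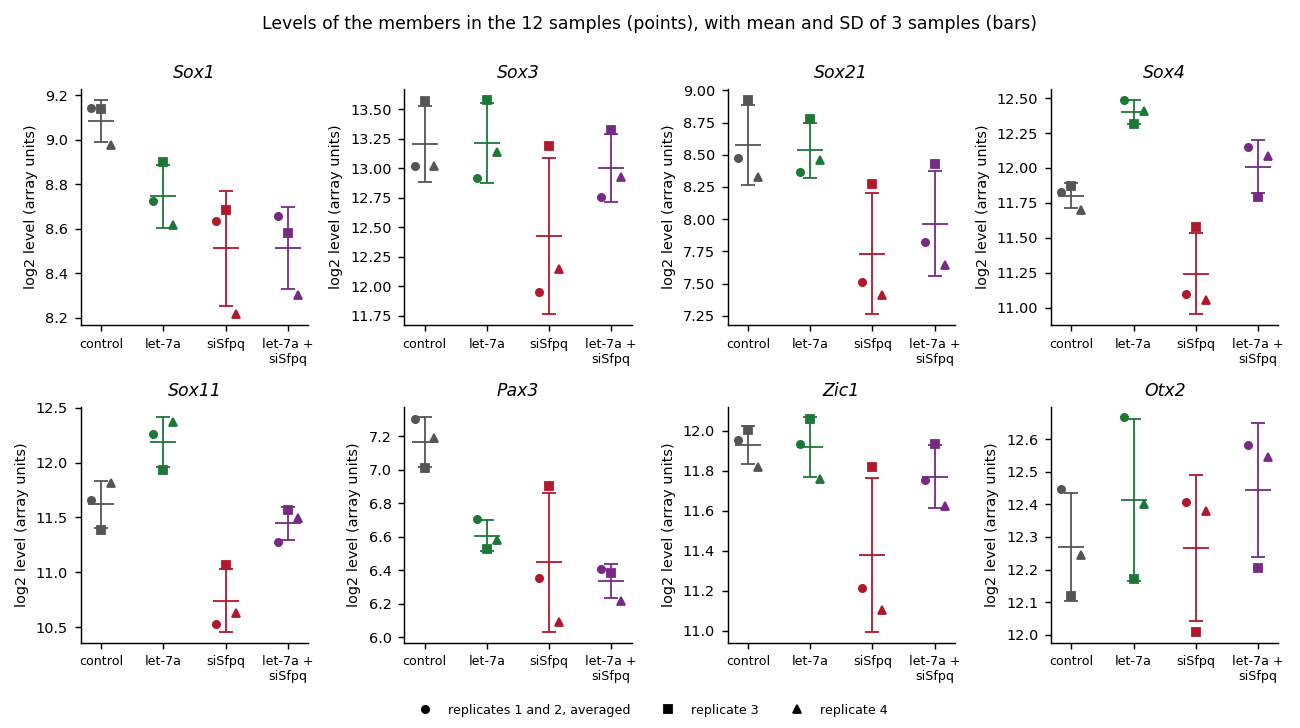
Log2 level in array units (y axis, a scale of its own for each gene) of the 8 tested members in the 4 conditions (x axis), with 1 point per sample and the mean and SD of 3 samples as bars. The let-7a samples of Sox4 and Sox11 lie above their control samples and the siSfpq samples below them, and replicate 3 (squares) is the highest siSfpq sample of 7 members.

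Sox4 and Sox11 mark committing progenitors and young neurons. Sox4 was called higher with let-7a and lower with siSfpq, and Sox11 was called lower with siSfpq. Sox4 stood at 11.83, 11.87 and 11.70 in control, 12.49, 12.31 and 12.40 with let-7a, 11.10, 11.58 and 11.05 with siSfpq alone, and 12.15, 11.79 and 12.09 with both treatments. The let-7a samples were all above control and the siSfpq samples all below, and the samples with both overlapped control. Sox4 changed by 0.60 with let-7a (standard error 0.14, limma adjusted p = 0.029), by -0.56 with siSfpq (standard error 0.14, limma adjusted p = 0.029, and 0.052 under scaling to the 75th percentile) and by 0.21 with both (limma adjusted p = 0.69). Adding let-7a to siSfpq raised it by 0.77 (limma adjusted p = 0.012), higher in 3 of 3 samples, by 0.22 in replicate 3 and by 1.06 and 1.03 in the others. Without replicate 3 these changes were 0.68, -0.69, 0.36 and 1.05, and all were called. In bulk RNA, fewer cells of a type and less RNA per cell cannot be told apart.

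Sox11 stood at 11.66, 11.39 and 11.81 in control, 12.26, 11.93 and 12.37 with let-7a, 10.53, 11.07 and 10.63 with siSfpq alone, and 11.27, 11.57 and 11.50 with both treatments. As for Sox4, let-7a and siSfpq samples did not overlap control and lay on opposite sides of it. The change with let-7a, 0.57 (standard error 0.17), was not called (limma adjusted p = 0.070), although it was 0.60, 0.55 and 0.55 in the 3 samples, and it was called with the replicate block (limma adjusted p = 0.035) and without replicate 3 (0.58, limma adjusted p = 0.0033). With siSfpq, Sox11 fell by 0.88 on the log2 scale (standard error 0.17, limma adjusted p = 0.011), with differences of -0.32 in replicate 3 and of -1.13 and -1.19 in the others. With both treatments it was 0.74 lower than with let-7a alone (log2 change of -0.74, limma adjusted p = 0.039) and 0.70 higher than with siSfpq alone (limma adjusted p = 0.028). Against control the samples with both overlapped, at a change of -0.18 (limma adjusted p = 0.82). Over the fits that left out replicates this change ran from -0.35 to -0.070, and without replicate 3 it was -0.35 and called (limma adjusted p = 0.039).

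The probes of these 2 genes moved together. The 3 Sox4 probes, which span 3715 bases of chromosome 13 in mm9, changed by 0.45 to 0.73 with let-7a and by -0.48 to -0.62 with siSfpq, and both Sox11 probes changed by 0.48 and 0.65 with let-7a and by -0.83 and -0.93 with siSfpq. The Sox4 probe with the smallest changes (A_55_P2131899) is shown because it lies in the coding sequence, at the end of the DNA-binding HMG box, at chromosome 13 from 29044482 to 29044541 in mm9, minus strand. The other 2 Sox4 probes lie downstream of it. Its change was 0.45 with let-7a (limma adjusted p = 0.18) and -0.48 with siSfpq (limma adjusted p = 0.097), and neither was called, whereas the second was called with the replicate block (limma adjusted p = 0.032).

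Sox4 probe A_55_P2131899: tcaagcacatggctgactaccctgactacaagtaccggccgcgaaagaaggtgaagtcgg

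Sox4 and Sox11 had a Pearson r of 0.88 over the 12 samples, which share conditions and arrays, and other pairs were closer (up to 0.92 for Sox3 and Zic1). The 250 bases before the RefSeq starts of Sox4 and Sox11 are also shown, and whether they bear on the levels was not tested. CCAAT, or its complement ATTGG on the other strand, is in capitals, and it was searched on both strands as a common element of promoters. Sox4 is at chr13:28953700-28953949 and Sox11 at chr12:27342719-27342968, both on the minus strand of GRCm38.p6.

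Sox4: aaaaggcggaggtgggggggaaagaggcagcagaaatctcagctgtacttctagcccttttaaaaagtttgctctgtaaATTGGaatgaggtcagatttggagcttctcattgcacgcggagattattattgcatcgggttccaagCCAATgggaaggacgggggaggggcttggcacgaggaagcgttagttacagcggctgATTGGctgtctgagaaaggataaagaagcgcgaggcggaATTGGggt
Sox11: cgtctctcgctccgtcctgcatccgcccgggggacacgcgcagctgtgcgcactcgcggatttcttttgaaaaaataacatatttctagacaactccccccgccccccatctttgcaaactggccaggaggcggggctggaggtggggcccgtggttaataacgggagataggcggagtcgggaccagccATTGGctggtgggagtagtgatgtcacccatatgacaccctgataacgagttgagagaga

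The Sox4 window held 4 such matches and the Sox11 window 1, where 33.8% of 32851 windows of the same length held at least 1. The Zic1 window (2 matches), the Sox1 window (1) and a window each of Pax6 (1) and Otx2 (1) held it too. Those of Sox21 and Pax7 did not. The GC box GGGCGG, also searched on both strands, matched at 2 places before Sox11 and at none before Sox4, where 32.7% of windows held it. The letters ACAAT, the core that Sox proteins bind, were in neither window, where 27.7% of windows held them. Promoters were listed for 8 of the 10 members, with none for Sox3 and Pax3.

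Sox1, Sox3 and Sox21 belong to the SoxB group of dividing progenitors. Sox1 was the one of them called over 12 samples. Its level stood at 9.14, 9.14 and 8.98 in control, 8.72, 8.90 and 8.62 with let-7a, 8.64, 8.69 and 8.22 with siSfpq alone, and 8.66, 8.58 and 8.30 with both treatments. All treated samples were below all control samples. The change was -0.34 with let-7a (standard error 0.15, limma adjusted p = 0.24), -0.57 with siSfpq (standard error 0.15, limma adjusted p = 0.034) and -0.57 with both (limma adjusted p = 0.11). With the replicate block all 3 were called (limma adjusted p = 0.025, 0.0030 and 0.0056). Without replicate 3 only the change with siSfpq was called (-0.63, limma adjusted p = 0.016). Those with let-7a (-0.39, limma adjusted p = 0.12) and with both (-0.58, limma adjusted p = 0.052) were not.

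Of the 2 Sox1 probes, fitted alone, the one at the distal end was called with siSfpq. Probe A_55_P2012056, at chromosome 8 from 12399496 to 12399555 in mm9, holds the letters AATAAA of a polyadenylation signal, as do 10.1% of all probes on the array. It read 11.07, 10.88 and 11.07 in control and 9.70, 10.29 and 9.70 in siSfpq, a change of -1.11 (standard error 0.16, limma adjusted p = 0.0052). Probe A_55_P2012051 lies upstream and covers the stop codon, and both together span 2052 bases. It read 7.22, 7.40 and 6.88 in control and 7.57, 7.08 and 6.73 in siSfpq, which overlapped, and its change was -0.037 (standard error 0.26, limma adjusted p = 0.94). With let-7a + siSfpq against control the distal probe changed by -0.93 (limma adjusted p = 0.018) and the probe at the stop codon by -0.21 (limma adjusted p = 0.90). A probe called beside one that was not called does not show that they differ, and the difference was not tested. The bases of the upstream probe up to the stop codon are shown with that codon in capitals, from 12397503 to 12397536 on the plus strand.

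Sox1 probe A_55_P2012051, first 34 bases: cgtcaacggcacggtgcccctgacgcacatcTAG

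Sox3, measured by 1 probe, stood at 13.02, 13.57 and 13.02 in control, 12.92, 13.58 and 13.14 with let-7a, 11.95, 13.19 and 12.15 with siSfpq alone, and 12.76, 13.32 and 12.93 with both treatments. Replicate 3 was the highest sample of every condition, and its siSfpq value lay above the other 2 control samples. Within each replicate number siSfpq was lower in 3 of 3, with differences of -1.07, -0.39 and -0.88. The change was -0.78 (standard error 0.30, limma adjusted p = 0.10) without a block, -0.78 (standard error 0.13, limma adjusted p = 0.0031) with the replicate block and -0.97 (limma adjusted p = 2.0e-04) without replicate 3. With both treatments Sox3 was higher than with siSfpq alone by 0.58 (limma adjusted p = 0.23, and 0.010 with the block), whereas with let-7a alone it changed by 0.0086 (limma adjusted p = 0.99).

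Sox21 stood at 8.47, 8.93 and 8.33 in control, 8.37, 8.77 and 8.46 with let-7a, 7.51, 8.27 and 7.41 with siSfpq alone, and 7.83, 8.42 and 7.65 with both treatments. The siSfpq samples were all below control, at a change of -0.84 (standard error 0.27, limma adjusted p = 0.057). This was called with the replicate block (limma adjusted p = 0.0016), with the slide as a block (limma adjusted p = 0.0496) and without replicate 3 (-0.94, limma adjusted p = 2.8e-04). With both treatments against let-7a the change was -0.57 (limma adjusted p = 0.32, and 0.010 with the block). As for Sox1, the 2 probes gave changes of different size. Probe A_55_P2052655 read 9.20, 9.77 and 9.11 in control and 7.66, 8.85 and 7.46 in siSfpq, a change of -1.38 (limma adjusted p = 0.029). Probe A_55_P2104899 read 7.74, 8.08 and 7.54 in control and 7.36, 7.69 and 7.37 in siSfpq, a change of -0.31 (limma adjusted p = 0.33, and 0.030 with the replicate block). They lie within 496 bases of each other on chromosome 14, the first one downstream, and the difference between them was not tested.

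**Figure D3:**
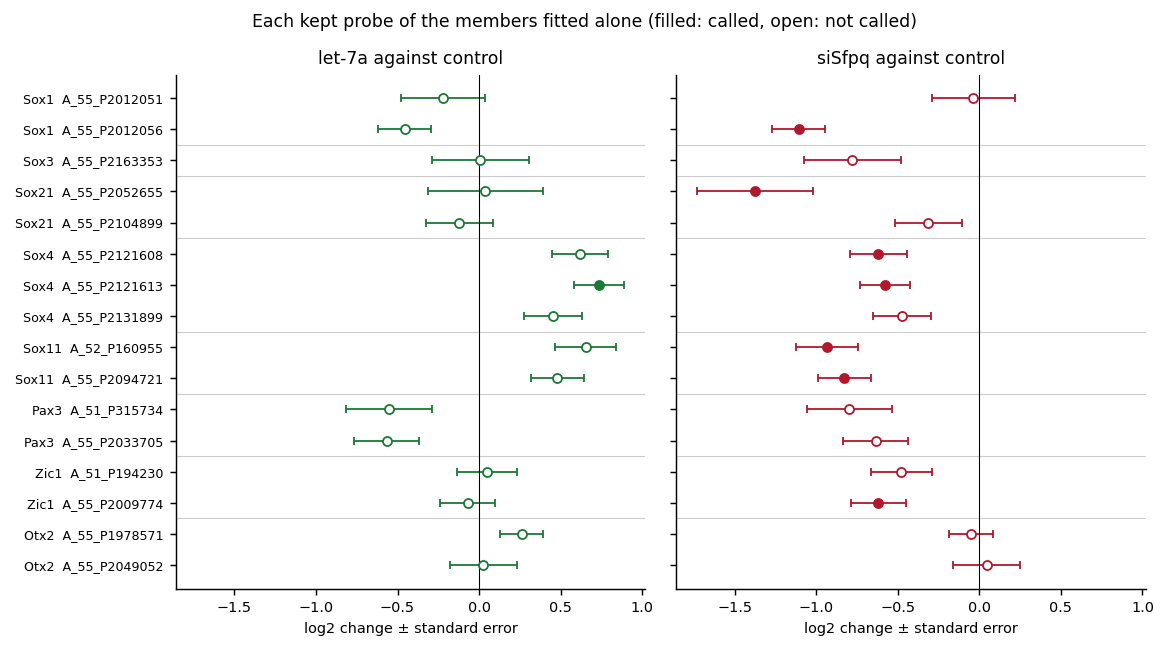
Log2 change (x axis, with standard error) of each of the 16 kept probes of the members (rows), fitted alone, for let-7a and siSfpq against control. Filled points were called at a limma adjusted p under 0.05 over all probes. With siSfpq the Sox1 probes sit at -0.037 and -1.11 and the Sox21 probes at -0.31 and -1.38, whereas the probes of Sox4, Sox11, Pax3, Zic1 and Otx2 lie close to each other.

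Pax3, a gene of the dorsal neural tube and neural crest, was lower in all 3 treated conditions. It stood at 7.30, 7.01 and 7.19 in control, 6.71, 6.53 and 6.58 with let-7a, 6.35, 6.90 and 6.09 with siSfpq alone, and 6.41, 6.38 and 6.22 with both treatments. No treated sample reached the lowest control sample. The change with siSfpq was -0.72 (standard error 0.20, limma adjusted p = 0.038), with a difference of only -0.10 in replicate 3 against -0.95 (replicates 1 and 2) and -1.10 (replicate 4). The changes with let-7a, -0.56 (limma adjusted p = 0.13), and with both, -0.83 (limma adjusted p = 0.076), were called with the replicate block (limma adjusted p = 0.048 and 0.021) and without replicate 3 (-0.60 and -0.93, limma adjusted p = 0.018 and 0.0050). Both Pax3 probes, within 241 bases on chromosome 1, moved alike, by -0.55 and -0.57 with let-7a and by -0.80 and -0.63 with siSfpq, although neither was called with siSfpq when fitted alone (limma adjusted p = 0.065 and 0.057) unless with the replicate block (limma adjusted p = 0.019 and 0.021). Between both treatments and siSfpq alone the change was -0.11 (limma adjusted p = 0.77).

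Pax6, a gene of the eye and forebrain, and Pax7, a relative of Pax3, were at the limit of detection. Of the 2 Pax6 probes, A_55_P2022946 was well above background on 10 of 16 arrays, with 2 in control, 3 with let-7a, 3 in siSfpq and 2 with both treatments. Its log2 level ran from 2.57 to 5.10, where the dimmest probes above background stood at 2.94 to 4.34, depending on the array. The other probe, A_52_P469306, was above background on 0 of 16 arrays. It spans 852 bases of chromosome 2 in mm9, from 105524098 to 105524949 on the plus strand, and so crosses a splice junction. It is shown because its letters join the paired domain to the alternatively spliced exon within it.

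Pax6 probe A_52_P469306: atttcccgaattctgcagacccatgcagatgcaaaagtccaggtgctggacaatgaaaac

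The Pax7 probe was above background on 1 of 16 arrays, replicate 2 of let-7a (log2 level of 4.44), and between 1.82 and 3.66 on the others. Neither gene passed the filter on dim probes. In a fit without that filter neither was called in any comparison, with limma adjusted p-values from 0.13 (Pax6, both treatments against siSfpq) upwards, and differences in them were not detectable at this signal.

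Zic1, a zinc finger factor of the dorsal neural tube, stood at 11.95, 12.01 and 11.82 in control, 11.93, 12.06 and 11.76 with let-7a, 11.21, 11.82 and 11.10 with siSfpq alone, and 11.75, 11.93 and 11.62 with both treatments. The siSfpq samples were below control of the same number in 3 of 3, with differences of -0.74, -0.19 and -0.72. The change of -0.55 (standard error 0.17) was not called (limma adjusted p = 0.052), and was called with the replicate block (limma adjusted p = 0.0051) and without replicate 3 (-0.73, limma adjusted p = 3.9e-04). With let-7a it was -0.0097 (limma adjusted p = 0.99). Adding let-7a to siSfpq raised the level by 0.39 (limma adjusted p = 0.15, and 0.019 with the block). The Zic1 probe with the larger change with siSfpq (-0.62, limma adjusted p = 0.035) lies in the coding sequence of a zinc finger, at chromosome 9 from 91257301 to 91257360 in mm9, minus strand.

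Zic1 probe A_55_P2009774: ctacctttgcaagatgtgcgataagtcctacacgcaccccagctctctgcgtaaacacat

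Otx2 was the member whose level changed least with siSfpq. It was between 12.12 and 12.45 in control, 12.17 and 12.67 with let-7a, 12.01 and 12.41 with siSfpq alone, and 12.21 and 12.58 with both treatments, and all conditions overlapped. Its changes against control were 0.14 with let-7a (limma adjusted p = 0.71), -0.0037 with siSfpq (standard error 0.16, limma adjusted p = 0.99) and 0.17 with both (limma adjusted p = 0.81), and none was called with the block or without replicate 3. One of its probes, A_55_P2049052, belongs to an Ensembl transcript alone. It changed by 0.044 with siSfpq, and the other probe, A_55_P1978571, by -0.051. That other probe, fitted alone, was called higher with the replicate block, by 0.26 with let-7a (limma adjusted p = 0.011) and by 0.21 with both treatments (limma adjusted p = 0.046).

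**Figure D4:**
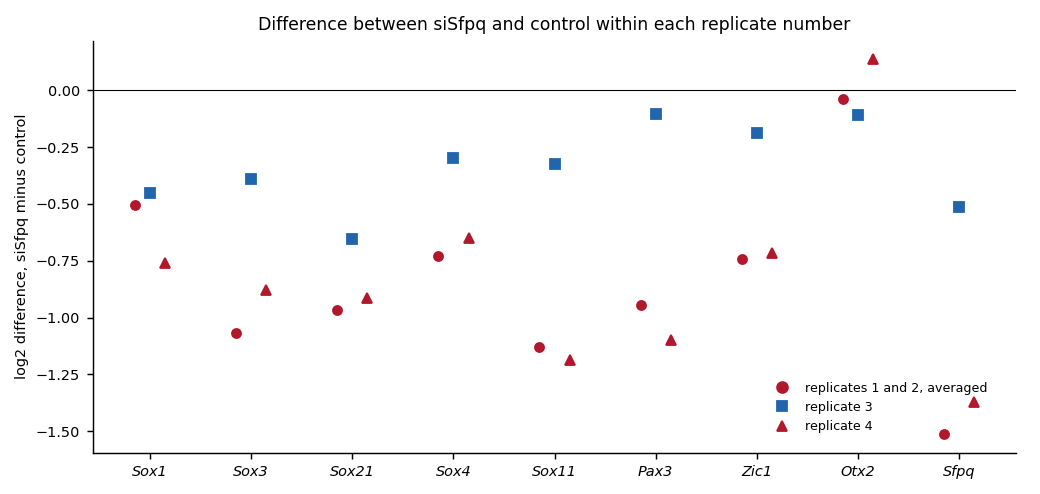
Log2 difference between siSfpq and control (y axis) within replicates 1 and 2 (averaged), replicate 3 and replicate 4, for the 8 tested members and Sfpq (x axis). The difference of Sfpq is -0.51 in replicate 3 against -1.51 and -1.37 in the others, and those of Sox11 are -0.32, -1.13 and -1.19.

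Over the 12 samples, Sox3, Sox21 and Zic1 followed each other most closely (Pearson r of 0.92 for Sox3 and Zic1 and 0.90 for both other pairs). Sox1 and Pax3 had an r of 0.88, as did Sox4 and Sox11, and Sox4 and Pax3 one of 0.15. The samples share conditions, and replicate 3 stands apart in all of them, so that these values describe the data and carry no test. For each member called against control, the genes most like it over the 12 samples were Sidt2 and Rnd2 for Sox4 (r of 0.99 for both), Dpysl2 and Ctif for Sox11 (r of 0.996 and 0.991), Pdss2 and LOC102643165 for Sox1 (r of 0.96 and 0.95) and Dipk1c and Pdlim7 for Pax3 (r of 0.97 and 0.96).

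Other genes of the same families moved in both directions. Of 27 further Sox, Pax, Zic and Otx genes, 17 were tested, and with siSfpq Sox2, Sox9, Sox12 and Zic4 were among those called lower and Sox15 was called higher, with a median change of -0.21, where 13.6% of all genes were called. With the replicate block Sox13 and Zic5 were also called higher and Sox6 and Sox14 lower (37.8% of all genes called). Sox2, the partner of Sox1 and Sox3 and also a pluripotency factor, stood at 11.02, 11.11 and 11.05 in control and 10.04, 10.79 and 10.20 in siSfpq, a change of -0.72 (limma adjusted p = 0.028). Zic4 changed by -1.19 (limma adjusted p = 0.033) and Sox12, a relative of Sox4 and Sox11, by -1.09 (limma adjusted p = 0.042). Sox15 rose by 1.12 (limma adjusted p = 0.021) and by 1.17 when siSfpq was added to let-7a (limma adjusted p = 0.036).

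With let-7a 2 of these 17 genes were called, both higher, where 6.9% of all genes were called. Sox9, a factor of glial and crest progenitors, changed by 0.96 with let-7a (limma adjusted p = 0.048), by -1.12 with siSfpq (limma adjusted p = 0.021) and by 1.32 when let-7a was added to siSfpq (limma adjusted p = 0.014). Its probe was above background on 1 of 4 siSfpq arrays and on all other arrays, so that the changes that involve siSfpq alone are taken from a level near the limit of detection. Pax9 changed by 1.61 with let-7a (limma adjusted p = 0.037). It was above background on 3 of 4 control arrays and on 1 of 4 siSfpq arrays, so that its changes against siSfpq are likewise taken from a level near that limit. Zic5 was lower with both treatments than with siSfpq alone, at a change of -0.63 (limma adjusted p = 0.020). Under the block, Pax9 and Sox15 were also called higher with both treatments against control (8.14% of all genes called) and Pax9 and Sox2 lower against let-7a (13.2%). Against siSfpq, Pax9, Sox12 and Zic4 were among those also called higher under the block and Sox13 was called lower (33.3%). Without replicate 3 more of the 17 genes were called in these comparisons, where 18.2%, 26.7% and 47.1% of all genes were. Under scaling to the 75th percentile, 3 of the changes named here were not called, those of Sox9 and Pax9 with let-7a (limma adjusted p = 0.054 and 0.074) and that of Sox2 with siSfpq (limma adjusted p = 0.052). Without the filter on dim probes the same 3 were not called (limma adjusted p = 0.081, 0.13 and 0.055), and with the brightest probe the change of Sox9 with let-7a was not (limma adjusted p = 0.052). In fits of the 2 groups compared, the changes of Sox2 and Sox9 with siSfpq and of Sox9 against siSfpq were not called (limma adjusted p = 0.088, 0.096 and 0.10). Changes of Sox12, Sox15 and Zic4 also lost their calls without the filter or in such fits, and that of Zic5 in such a fit or with the brightest probe. Without replicate 4 and without replicates 1 and 2, none of these changes was called.

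A further list of 34 progenitor genes, of which 30 were tested, included Nes, Fabp7 and the Pou3f factors. Over the 12 samples, 5 were called higher and 0 lower with let-7a (6.9% of all genes called), and 12 lower and 0 higher with siSfpq (7.32% of all genes called lower). With both against control limma called 0, where 1.52% of all genes were called. Under the block, 11 were called higher with let-7a (21.8% of all genes called), 17 lower and 3 higher with siSfpq (37.8%), and 1 lower and 2 higher with both against control (8.14%). Without replicate 3, 15 were called higher and 1 lower with let-7a (30% of all genes called), 17 lower and 2 higher with siSfpq (49.2%), and 8 lower and 3 higher with both against control (18.2%). When siSfpq was added to let-7a 5 were called lower (3.12% of all genes called), with the block 13 lower and 1 higher (13.2%), and without replicate 3 18 lower and 1 higher (26.7%). When let-7a was added to siSfpq 6 were called higher (10.3% of all genes called), with the block 12 (33.3%), and without replicate 3 19 higher and 1 lower (47.1%). The median changes were 0.35 with let-7a and -0.73 with siSfpq. Some of these genes were near the limit of detection. Pou3f2, called higher with let-7a and lower when siSfpq was added to it, was above background on 4 of 4 let-7a arrays. Elsewhere it was so on 3 of 4 control, 1 of 4 siSfpq and 3 of 4 let-7a + siSfpq arrays. It thus passed the filter through let-7a alone. Pou3f3, called lower with siSfpq and higher when let-7a was added to siSfpq, was above background on 0 of 4 siSfpq arrays. Six3 was so on 1 of 4 of them. Pou3f1, a POU-domain factor of early neural cells whose probes were above background on all arrays, changed by 1.005 with let-7a (limma adjusted p = 0.041), by -1.27 with siSfpq (limma adjusted p = 0.014) and by 1.13 when let-7a was added to siSfpq (limma adjusted p = 0.024). Fabp7, a fatty acid-binding protein of radial glia, changed by -1.16 with siSfpq (limma adjusted p = 0.022). Nes, an intermediate filament of progenitors, changed by -0.49 with siSfpq and was not called (limma adjusted p = 0.055, and 0.020 with the replicate block). Pou3f1, Fabp7 and Nes were chosen after their values were seen.

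Markers of neurons were counted because Sox4 and Sox11 are strong in young neurons. All 10 neuronal markers were well above background on all 16 arrays, and none of them was absent. With let-7a 7 of 10 were called higher (median change of 1.28, and 6.9% of all genes called). With siSfpq 6 of 10 were called lower (median of -0.97, and 7.32% of all genes called lower), and with both against control 0 of 10 (1.52% of all genes called). Under the block these counts were 8 higher (21.8% of all genes called), 6 lower (37.8%) and 1 higher (8.14%). Without replicate 3 they were 8 higher (30% of all genes called), 7 lower (49.2%), and, with both against control, Dcx higher and Nefl, Stmn2, Syt1 and Tubb3 lower (18.2%). When siSfpq was added to let-7a, 6 of 10 were called lower (median of -1.33, and 3.12% of all genes called), and without replicate 3 9 of 10 (26.7%). When let-7a was added to siSfpq, 4 of 10 were called higher (median of 0.89, and 10.3% of all genes called), and without replicate 3 8 of 10 (47.1%). The mean log2 level of the 10 markers ran from 9.59 to 10.18 in control, 10.72 to 11.40 with let-7a, 9.13 to 9.21 with siSfpq alone, and 9.83 to 9.998 with both treatments. Their part in the Sox4 and Sox11 results was not tested.

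Markers of embryonal carcinoma ran from 11.48 to 11.62 in control, 10.95 to 11.35 with let-7a, 11.73 to 11.87 with siSfpq alone, and 11.45 to 11.51 with both treatments. Of 9 tested, 3 were called lower with let-7a, Lin28a, Nanog and Utf1, where 6.9% of all genes were called. With siSfpq 3 were called higher, Esrrb, Fgf4 and Utf1, and 1 lower, Sox2 (13.6% of all genes called). Sox2 is also counted among the Sox genes above. With both against control Lin28a was called lower (1.52% of all genes called), the block gave Lin28a and Nanog lower and Fgf4 higher (8.14%), and without replicate 3 4 were called lower and 2 higher (18.2%). Without replicate 3, 7 of 9 were called lower with let-7a (30% of all genes called), and with siSfpq 4 higher and 1 lower (49.2%). Their part in the results on the members was not tested.

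**Figure D5:**
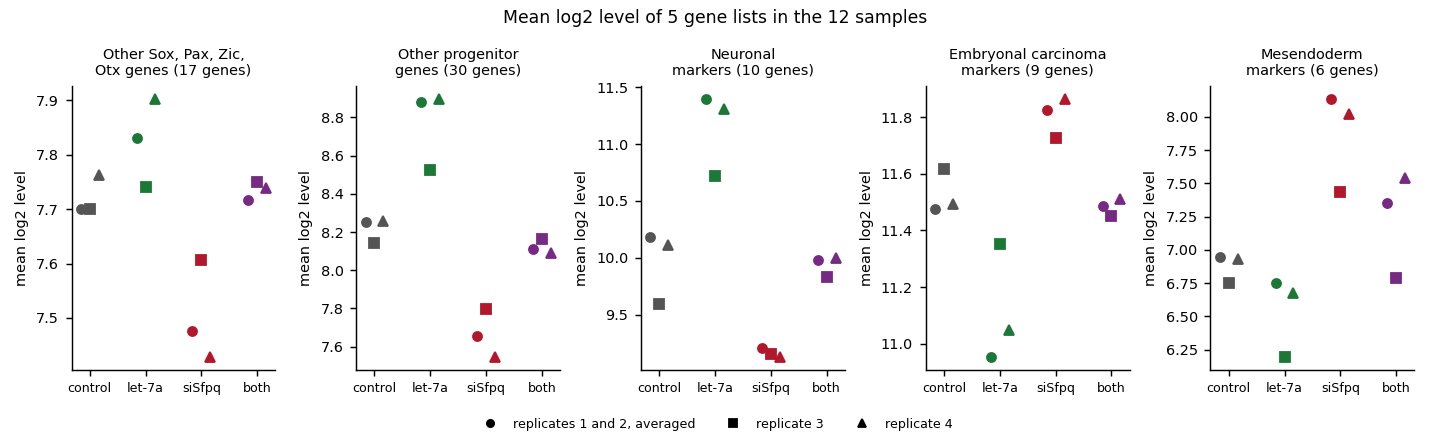
Mean log2 level (y axis, a scale of its own for each list) of the tested genes of 5 lists in each of the 12 samples, by condition (x axis, with "both" for let-7a + siSfpq). The neuronal markers run from 9.13 to 9.21 with siSfpq and from 10.72 to 11.40 with let-7a, on either side of control, as do the other progenitor genes.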

How the data were processed

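The authors deposited the scanner intensity of each spot of 16 arrays of 1 colour, extracted with Agilent Feature Extraction 10.7.3.1. Per the file headers, background was subtracted from the processed intensity, a spatial trend was removed, surrogates stand in for low values, and probe positions are in mm9. The authors also deposited log2 values, quantile normalized with limma per the methods, which follow the log2 median spot intensity without background subtraction (Pearson r of at least 0.999 over spots) and were used as an alternative.

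Log2 processed intensity was quantile normalized with limma 3.58.1 in R 4.3.3 (data.table, version 1.17.8). Outlier spots were left out, repeated spots were averaged, and probes had to be well above background on the 4 arrays of 1 condition or more. No value was left on some array for 85 probes, which were dropped. Probes named by a region or a probe ID were left out. RefSeq accessions named 31531 of 59305 spots, the file's gene name the rest, and probes of a gene were averaged.

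The 12 samples (arrays 1 and 2 averaged) were fitted in 1 limma model of 4 condition means, with variances moderated by empirical Bayes along an intensity trend, and tests were two-sided with Benjamini-Hochberg adjustment. The fit was tested on simulated data. The replicate numbers pair the samples, since deviations from the condition means correlated between all samples of the same number (r of 0.28 to 0.71), and the fit with the number as a block is given where it changes the call of a member or moves a count of calls in a list by over 1.5 times. Replicates 1 and 2 lie on 1 of 2 slides and replicates 3 and 4 on the other. The methods name 3 replicates, and 4 arrays per condition were used here.

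All members are named, as are Sfpq and the other Sox, Pax, Zic and Otx genes called in any comparison over the 12 samples, except for a result that is not reported here. The members and lists were chosen with earlier results of these data known. Lists of markers of embryonal carcinoma, neurons, mesendoderm, glia, neural crest, and fibroblasts and muscle were counted. Alternatives tried were normexp with an offset of 50, scaling to the 75th percentile, the authors' log2 values, other filters, the brightest probe, 16 arrays counted separately, the replicate or slide as a block, leaving out replicates, only the groups compared, and no trend. Each probe fitted alone was added after the data were examined. Promoter and miRNA sequences are from RefSeq tables of GRCm38.p6, and probe sequences from the scanner files. Python 3.11.15 and matplotlib 3.10.9 were used for sequences and figures.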

Additional observations from a re-analysis of the deposited data

How the results depend on the processing

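The number of members called depended on the samples kept and on the block. With let-7a the count of 1 became 4 with the replicate block and with 16 arrays counted separately, and 0 under scaling to the 75th percentile, without the filter on dim probes and with the brightest probe of each gene. With siSfpq the count of 4 became 7 with the replicate block and with 16 arrays, 1 without the filter and 0 with only the groups compared in the fit. With both against control, 0 became 3 with the replicate block, 2 with 16 arrays and 1 with the brightest probe. With both against let-7a, 1 became 2 with the replicate block and with 16 arrays, and 0 under scaling to the 75th percentile, without the filter, with the brightest probe and without the intensity trend. With both against siSfpq, 2 became 4 with the replicate block, 1 without the filter and 0 with only the groups compared. Leaving out replicates gave 0 to 3 members with let-7a, 0 to 7 with siSfpq, 0 to 4 with both against control, 0 to 3 with both against let-7a, 0 to 4 with both against siSfpq and 0 to 4 for the interaction. Calls of members that changed with the replicate block are given with the results. The cause of these shifts was not tested. The fit of 16 arrays takes arrays 1 and 2 as independent, although they differed about as little as repeated spots. For 16 arrays, and wherever the results give no share of all genes called, the counts of members cannot be weighed against that share.

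Changes near 0 turned direction. With let-7a, Sox21 was 0.039 with the brightest probe, A_55_P2052655, Sox3 was -0.074 under scaling to the 75th percentile and -0.018 with 16 arrays, and Zic1 was 0.0069 with the authors' values and 0.051 with the brightest probe, A_51_P194230. With siSfpq, Otx2 was 0.032 under scaling to the 75th percentile and 0.044 with probe A_55_P2049052 alone. With both against let-7a, Otx2 was -0.048 with the brightest probe, A_55_P1978571, and Sox1 was 0.013 with probe A_55_P2012051 alone. With both against siSfpq, Sox1 was -0.17 with that probe and Sox21 was -0.051 with probe A_55_P2104899 alone. Over the fits that left out replicates, with let-7a Sox21 ran from -0.13 to 0.015, Sox3 from -0.046 to 0.062 and Zic1 from -0.041 to 0.015. With siSfpq Otx2 ran from -0.073 to 0.049, with both against let-7a Otx2 from -0.024 to 0.089, and with both against siSfpq Pax3 from -0.23 to 0.093 and Sox1 from -0.042 to 0.055. The interaction of Otx2 ran from -0.021 to 0.076. None of these changes was called in the fit of 12 samples. Of the other values of single genes under these alternatives, single probes aside, 826 kept direction and call, 51 became called and 83 lost the call. Signal over background limited Pax6 and Pax7, which were tested only without the filter on dim probes, where neither was called.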

Other observations

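Markers of other cell types were counted beside the progenitor genes. Of 6 mesendoderm markers tested, T and Gsc were called lower with let-7a (6.9% of all genes called) and T was called higher with siSfpq (13.6%). Without replicate 3, 5 of 6 were called higher with siSfpq, where 49.2% of all genes were called. When siSfpq was added to let-7a, T, Gsc and Eomes were called higher (3.12% of all genes called), and when let-7a was added to siSfpq, T and Gsc were called lower (10.3%). The mean log2 level of these 6 genes ran from 6.75 to 6.94 in control, 6.20 to 6.75 in let-7a, 7.44 to 8.14 in siSfpq, and 6.79 to 7.54 in let-7a + siSfpq.

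Of 5 glial markers tested, 1 (Mbp) was called lower with siSfpq, where 13.6% of all genes were called, and 1 (Olig2) was called lower when siSfpq was added to let-7a (3.12%). Olig2 was above background on 4 of 4 let-7a arrays and 0 of 4 with both treatments, so that it passed the filter through let-7a alone. Of 6 neural crest markers, Tfap2b was called lower with siSfpq (13.6% of all genes called), and Tfap2a higher when let-7a was added to siSfpq (10.3%). Both are also among the other progenitor genes. Of 6 genes of fibroblasts and muscle, Col1a2 was called higher with let-7a (6.9% of all genes called) and when let-7a was added to siSfpq (10.3%). A single call among 5 or 6 genes is not a result about these lists. Without a block, these lists made no other calls over the 12 samples in the 5 comparisons. Under the block, 3 of 6 mesendoderm genes (Foxa2, Gata4 and T) were called higher with siSfpq, 3 of 6 neural crest genes either way (Ets1 and Snai2 higher, Tfap2b lower) and 3 of 6 fibroblast and muscle genes either way (Acta2 higher, Col1a1 and Col1a2 lower), where 37.8% of all genes were called. In the other comparisons the calls that the block added included Gata6, Foxa2, Gsc, Olig2, Mbp, Snai2, Tfap2a, Tfap2b, Ets1, Col1a1 and Des.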
